A study of Mus musculus with 22 samples.

Results

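The HoxA cluster genes Hoxa2, Hoxa3, Hoxa4, Hoxa5, Hoxa6, Hoxa7, Hoxa9, Hoxa10 and Hoxa11 were described here across the days and cell types of mouse gastruloids, which are aggregates of embryonic stem cells that form tissues of the posterior embryo in culture. They were taken by symbol from the gene rows of the count matrices, where all 9 were found among 32285 genes. The gastruloids were made from wild-type E14Tg2A mouse embryonic stem cells, a single line, seeded at 300 cells per well, aggregated over 48 h, and then exposed briefly to CHIR99021 at 3 µM, which blocks GSK3 and so activates Wnt signalling. All groups share this treatment, and they differ only in the day of collection and in the experiment. In 3 experiments called MULTI-seq 1, 2 and 3, the cells of single gastruloids carried a lipid-linked barcode and were pooled before droplet sequencing of the 3' ends of their mRNA, so that each cell can be traced to its gastruloid. MULTI-seq 3 held 24 day 3 gastruloids, with 16 on each later day (3.5, 4, 4.5, 5). MULTI-seq 1 held 24 gastruloids of day 5, and MULTI-seq 2 held 11 used of day 4 and 12 of day 4.5. Another 4 MULTI-seq 2 libraries, of days 3 and 3.5, were not analysed here, so 18 of 22 libraries were used. A further pair of libraries, of day 3 and day 4, and a pool of days 4 and 4.5 carried no gastruloid assignment and gave single values.

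Hox genes encode homeodomain transcription factors that give cells their position along the head-to-tail axis. In each cluster the genes lie in the order in which they are used: those at the 3' end of the cluster start early and reach far forward, and those at the 5' end start late and stay behind. Wnt signalling, the Cdx factors and retinoic acid act on the cluster in the posterior embryo, and Polycomb proteins keep its silent part closed. Hoxa2 patterns the hindbrain and pharyngeal arches, Hoxa3, Hoxa4 and Hoxa5 the neck and upper trunk, Hoxa6 and Hoxa7 the thoracic region, and Hoxa9, Hoxa10 and Hoxa11 the lower trunk, with Hoxa11 also shaping the limb and kidney.

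All members lie on the minus strand of chromosome 6 in mm10, and each is protein coding in the GENCODE annotation. From the 3' end of the cluster the genes span chr6:52162417-52164831 (Hoxa2), chr6:52169062-52213336 (Hoxa3), chr6:52189671-52191753 (Hoxa4), chr6:52201754-52204587 (Hoxa5), chr6:52206288-52208722 (Hoxa6), chr6:52214491-52221854 (Hoxa7), chr6:52223100-52231089 (Hoxa9), chr6:52231197-52240854 (Hoxa10) and chr6:52242106-52245810 (Hoxa11). Exons of antisense genes overlap 586 of the 2876 exonic bases of Hoxa7 (Hoxaas3), 1237 of the 6014 of Hoxa3 (Hoxaas2, Hoxaas3 and Gm29430), 255 of the 1594 of Hoxa4 (Gm29430) and 800 of the 2287 of Hoxa11 (Hoxa11os). No source used here gives the strand setting of the counting, so values of these 4 genes are uncertain by the reads that such partners share.

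The sequences just before the transcript starts of Hoxa2, Hoxa9 and Hoxa10 are shown because Hoxa2 was among the early genes by the rule described below and Hoxa9 and Hoxa10 among the late ones. They are RefSeq sequences of GRCm38.p6, the build of mm10, 250 bases up to the start, read 5' to 3' on the gene's strand. Capitals mark matches to the motifs that were searched: an 8-base PBX-HOX motif on the other strand in Hoxa2, a GC box in Hoxa9 and in the upstream window of Hoxa10, and a TATA box on the other strand in the second window of Hoxa10.
Hoxa2, chr6:52164832-52165081, minus strand: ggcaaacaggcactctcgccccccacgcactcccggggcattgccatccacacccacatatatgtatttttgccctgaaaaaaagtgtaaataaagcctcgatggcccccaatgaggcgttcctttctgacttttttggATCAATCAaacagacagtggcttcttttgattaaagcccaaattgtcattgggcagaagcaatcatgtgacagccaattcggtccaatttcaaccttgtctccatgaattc
Hoxa9, chr6:52227371-52227620, minus strand: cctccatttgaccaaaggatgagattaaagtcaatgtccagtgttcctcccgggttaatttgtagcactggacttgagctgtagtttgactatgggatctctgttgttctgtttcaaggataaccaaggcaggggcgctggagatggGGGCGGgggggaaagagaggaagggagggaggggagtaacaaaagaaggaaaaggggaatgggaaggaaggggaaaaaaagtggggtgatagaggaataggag
Hoxa10, chr6:52240855-52241104, minus strand: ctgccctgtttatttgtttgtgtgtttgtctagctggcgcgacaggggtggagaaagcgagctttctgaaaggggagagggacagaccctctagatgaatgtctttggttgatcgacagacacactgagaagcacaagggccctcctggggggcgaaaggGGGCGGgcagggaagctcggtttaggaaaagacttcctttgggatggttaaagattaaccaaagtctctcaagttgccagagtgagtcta
Hoxa10, chr6:52234940-52235189, minus strand: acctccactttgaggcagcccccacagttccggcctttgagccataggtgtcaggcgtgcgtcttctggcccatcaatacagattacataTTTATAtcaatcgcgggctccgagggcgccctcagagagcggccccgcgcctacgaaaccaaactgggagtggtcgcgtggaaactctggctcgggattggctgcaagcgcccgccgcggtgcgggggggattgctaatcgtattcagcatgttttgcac

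Of the members, 8 had a RefSeq window and Hoxa4 had none in the table. With 1 window per gene and both strands searched, the PBX-HOX motif TGATTNAT was in the Hoxa2 window and in 2.99% of 27025 promoters. The GC box GGGCGG was in the Hoxa6, Hoxa9 and Hoxa10 windows and in 32.9% of promoters. The CDX motif TTTATNG, the retinoic acid receptor half-site AGGTCA and the TATA box TATAAA were in 10.2%, 13.8% and 12.97% of promoters and in none of the members' first windows. Read on the other strand, the TATA box is TTTATA and shares its first 5 letters with the CDX motif. A match describes the letters of the window and nothing about binding.

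From the cell table, 77674 cells in 25 named types were matched to the count matrices. Another 9 cells, of the day 4 library without gastruloid assignment, had no matching barcode and were left out. Of the matched cells 53730 had a gastruloid among 136, and 135 gastruloids with at least 30 cells were used. Library totals ranged from 64703013 to 307883815 UMIs (unique molecular identifiers, each standing for 1 captured mRNA) over 18 lanes. The lanes of 1 pool are technical splits and were summed per gastruloid, whose totals ranged from 1293296 to 57333371 UMIs. Of 76935 distinct cell barcodes, 732 occurred in more than 1 lane and 95 in more than 1 lane of the same pool. Gastruloids are separate aggregates, but the labels say no more on their independence, so p-values measure the spread between these gastruloids. The type names were made by the authors from expression, and all 9 members were among the 4214 genes marked highly variable in their table, so differences between types are given as description. Of the 23 types with a marker list, most had all of their defining markers above the level of the median type. The exceptions were Msgn1 in Late Anterior PSM (presomitic mesoderm), Pax3 in Early Spinal Cord, and Pax6 and Otx2 in Early and Caudal Neurectoderm.

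Levels are given as CPM, the UMIs of a gene per 1000000 UMIs of the same gastruloid. In the whole gastruloids of MULTI-seq 3, Hoxa2 to Hoxa5 came earlier than Hoxa7 to Hoxa10 when each gene was measured against its own highest day mean. Hoxa3 and Hoxa5 had passed 10% of their highest day mean at day 3, Hoxa2 and Hoxa4 at day 3.5, Hoxa6 at day 4, and Hoxa7, Hoxa9 and Hoxa10 at day 4.5. Hoxa11 also met that rule at day 3, but at a mean of 0.04 CPM. The rule gives a share of a later maximum and not presence, since Hoxa7 already averaged 1.22 CPM at day 3. With a rule of 25% the days were 3.5 for Hoxa2, Hoxa3, Hoxa4 and Hoxa5, 4.5 for Hoxa6, Hoxa7 and Hoxa9, and 5 for Hoxa10 and Hoxa11. In such sums fewer cells of a type and less RNA per cell cannot be told apart.

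Hoxa2, the 3'-most member, averaged 1.37 ± 0.62 CPM at day 3 (SD, n = 24). On the later days (n = 16 each) its means were 12.6 ± 9.03 (day 3.5), 24.6 ± 9.40 (day 4), 24.7 ± 5.40 (day 4.5) and 20.3 ± 3.02 (day 5). At day 3.5 its gastruloids ranged from 3.24 to 30.7 CPM around a median of 9.23, and at day 4 from 11.8 to 42.7 around 25.0. The day 3 gastruloids reached at most 2.97 CPM and did not overlap those of day 3.5, while days 4, 4.5 and 5 overlapped one another. Hoxa3 averaged 3.16 ± 1.09, 18.2 ± 4.96, 13.9 ± 7.70, 28.1 ± 8.20 and 26.9 ± 6.63 CPM on the 5 days in turn. Hoxa4, its neighbour within the Hoxa3 transcription unit, averaged 0.75 ± 0.52, 5.04 ± 1.18, 4.79 ± 1.90, 8.86 ± 1.99 and 8.18 ± 1.63 CPM on the same days. Hoxa5, which patterns the neck and upper trunk, averaged 2.26 ± 1.18, 9.68 ± 4.22, 8.84 ± 3.11, 12.2 ± 2.22 and 19.0 ± 3.25 CPM. Each of the 4 genes from Hoxa2 to Hoxa5 was thus higher in mean at day 3.5 than at day 3, and so was each of the other members. Those days came from separate pools, and 74.8% of all genes were called between them.

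In whole gastruloids Hoxa7 and Hoxa9 were much lower until day 4 than from day 4.5. Hoxa7 averaged 1.22 ± 0.50 CPM at day 3, 4.93 ± 3.02 at day 3.5 and 6.62 ± 6.08 at day 4, where the lowest, median and highest gastruloids were at 1.69, 4.21 and 22.5. At day 4.5 it averaged 55.2 ± 25.2, with gastruloids at 22.8, 52.0 and 106, and at day 5 it averaged 78.1 ± 14.1, with gastruloids at 48.7, 80.4 and 101. The highest day 4 gastruloid was just below the lowest of day 4.5. Hoxa9 averaged 0.33 ± 0.33, 1.82 ± 2.02, 2.21 ± 1.84, 30.4 ± 20.7 and 49.3 ± 22.4 CPM on the 5 days. Its lowest, median and highest gastruloids were at 6.88, 26.8 and 80.0 at day 4.5 and at 14.02, 53.0 and 89.1 at day 5, so those days overlapped over most of their range. In Early Spinal Cord and NMPs both genes were higher at day 4 than in the whole gastruloids. In Early Spinal Cord Hoxa7 was at 27.7 ± 6.07 CPM at day 3.5 (n = 4) and 67.3 ± 31.7 at day 4 (n = 3), and Hoxa9 at 14.6 ± 5.69 and 33.9 ± 35.9. In NMPs (neuromesodermal progenitors) at day 4 they were at 35.1 ± 13.4 and 18.4 ± 8.34 CPM (n = 9). The median share of cells with a neural type name was 43.9% at day 3.5, 1.18% at day 4 and 21.2% at day 4.5.

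Few UMIs were counted for Hoxa6 and Hoxa11, and for Hoxa10 before day 5, when it had 2628 in MULTI-seq 3. Hoxa10 stayed at a mean of at most 0.34 CPM to day 4 and averaged 1.47 ± 1.22 at day 4.5, with gastruloids at 0.24, 0.97 and 4.29 (lowest, median, highest). At day 5 it averaged 7.77 ± 5.04, with gastruloids at 1.53, 6.94 and 20.3. Hoxa6 averaged 0.48 ± 0.35 CPM at day 4.5 and 1.32 ± 0.47 at day 5. Hoxa11 had 141 UMIs in all of MULTI-seq 3, its highest gastruloid was at 1.2 CPM, and it passed the filter on low counts in no comparison.

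**Figure D1:**
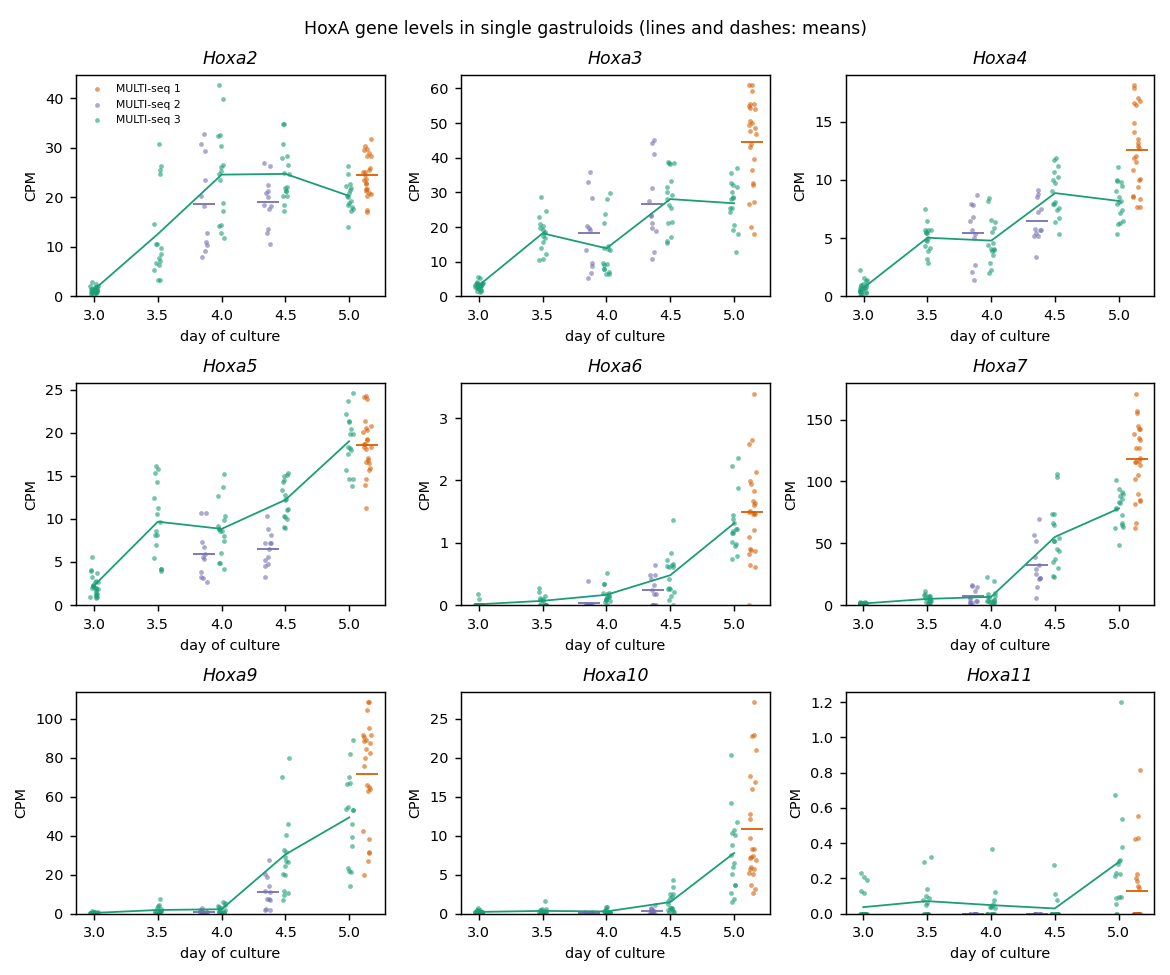
Level of each member in CPM against the day of culture. Each point is 1 gastruloid, coloured by experiment, the line joins the MULTI-seq 3 means and the dashes are the means of the other experiments. The MULTI-seq 3 mean of Hoxa7 is at most 6.62 CPM to day 4 and 55.2 at day 4.5, that of Hoxa9 goes from 2.21 to 30.4 and that of Hoxa10 is highest at day 5, while Hoxa2 is already at 24.6 CPM at day 4.

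Days that shared a pool were compared by edgeR's quasi-likelihood test on UMI sums, with p-values adjusted over all genes tested and a threshold of 0.05. At day 5 against day 4.5 in MULTI-seq 3 Hoxa2 fell, Hoxa5, Hoxa6 and Hoxa10 rose, and Hoxa3, Hoxa4, Hoxa7 and Hoxa9 did not pass. Of 8 members tested, 3 rose and 1 fell, beside 13.5% of all genes called in that comparison. Such shares of all genes count both directions, here and below. The log2 fold changes were -0.31 for Hoxa2 (SE 0.09, adjusted p = 0.023), 0.62 for Hoxa5 (SE 0.09, adjusted p = 2.54e-05), 1.42 for Hoxa6 (SE 0.27, adjusted p = 0.00061) and 2.40 for Hoxa10 (SE 0.38, adjusted p = 6.05e-05). Hoxa7 differed by 0.48 (adjusted p = 0.060) and Hoxa9 by 0.69 (adjusted p = 0.11). The median over the members was 0.55, against 0.00 over all genes tested.

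Gastruloids of the same day differed in how many of their cells had a neural type name. That share ran from 2.69% to 95.7% at day 4.5 and from 5.67% to 81.0% at day 5, with medians of 21.2% and 29.7%. With the share as a covariate, Hoxa7 and Hoxa9 passed as well, at 0.62 (adjusted p = 0.0013) and 0.91 (adjusted p = 0.0025). Hoxa7 also passed with DESeq2 (adjusted p = 0.041) and with library totals alone (adjusted p = 0.045), and the Hoxa2 call was lost with no filter on low counts (-0.29, adjusted p = 0.053).

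At day 4 against day 3.5 in MULTI-seq 3, Hoxa2 was the member that rose, by 0.89 (SE 0.27, adjusted p = 0.0055), and the other 5 tested did not pass, beside 60.4% of all genes called. The neural share was 0.498% to 83.5% at day 3.5 (median 43.9%) and 0.0885% to 73.7% at day 4 (median 1.18%). With that share as a covariate the Hoxa2 difference was 0.46 (adjusted p = 0.060), and the call was lost. Hoxa3 differed by -0.45 (adjusted p = 0.065).

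In MULTI-seq 2, at day 4.5 against day 4, Hoxa7 and Hoxa9 rose and the other 4 members tested did not pass, beside 7.36% of all genes called. Hoxa7 went from 7.29 ± 5.80 CPM (SD, n = 11) to 32.4 ± 18.7 (n = 12), a log2 fold change of 2.22 (SE 0.42, adjusted p = 0.0019). Its gastruloids ranged from 1.44 to 16.0 CPM and from 5.89 to 69.9. Hoxa9 went from 1.01 ± 0.84 to 10.97 ± 8.08 CPM, by 3.48 (SE 0.55, adjusted p = 0.00040), with ranges of 0 to 2.99 and 1.77 to 27.7. Both genes overlapped between the days, Hoxa7 over most of its day 4 range. The median neural share was 2.50% at day 4 and 21.7% at day 4.5. With that share as a covariate the changes were 1.82 for Hoxa7 (adjusted p = 0.00065) and 3.06 for Hoxa9 (adjusted p = 0.00028). In Late Posterior PSM Hoxa7 stood at 12.9 ± 4.87 CPM (n = 4) and 14.6 ± 6.57 (n = 8), and in Early Spinal Cord at day 4.5 it stood at 103 ± 24.3 (n = 8). In the whole gastruloids Hoxa2 stood at 18.7 ± 9.22 and 19.1 ± 5.03 CPM.

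The steps from day 3 to 3.5 and from day 4 to 4.5 in MULTI-seq 3 joined gastruloids of separate pools, so day and pool cannot be told apart there. From day 3 to 3.5 all 5 members tested rose, beside 74.8% of all genes called, of which 4704 rose and 4260 fell. The rises were 3.06 for Hoxa2, 2.37 for Hoxa3, 2.53 for Hoxa4, 1.956 for Hoxa5 and 1.92 for Hoxa7 (highest adjusted p = 1.43e-09, Hoxa7). From day 4 to 4.5, 5 of 6 members tested rose, beside 66.1% of all genes called, of which 4158 rose and 4337 fell. Hoxa3 rose by 1.22, Hoxa4 by 1.10, Hoxa5 by 0.66, Hoxa7 by 3.32 and Hoxa9 by 4.06 (highest adjusted p = 0.00023, Hoxa5). Hoxa2 did not pass, and with the neural share as a covariate it did, at 0.41 (adjusted p = 0.039). With that covariate Hoxa7 rose by 2.78 and Hoxa9 by 3.33 (highest adjusted p = 9.13e-10, Hoxa9). The consecutive comparisons share the gastruloids of their common day, so their values are not independent of one another.

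The cell types differed in their levels of the members, as the map of mean levels by type shows, while some were close to each other for several members, such as Somites and Late Anterior PSM. Values are those of MULTI-seq 3 unless MULTI-seq 1 is named. At day 5 Hoxa7 averaged 153 ± 23.9 CPM in Early Spinal Cord (n = 15), 127 ± 28.1 in NMPs (n = 14), 91.6 ± 12.8 in Late Anterior PSM (n = 12), 89.3 ± 14.3 in Somites (n = 10), 73.5 ± 14.2 in Late Spinal Cord (n = 8), 59.9 ± 10.9 in Late Posterior PSM (n = 15) and 53.5 ± 24.8 in Mature Somites (n = 16). Neighbours in that order differed by less than their spread of 1 SD on each side. Mature Endoderm at 9.79 ± 5.48 (n = 8) and Head Mesoderm at 0.13 ± 0.29 (n = 5) each lay beyond it. In MULTI-seq 1 Early Spinal Cord and NMPs also led, but Late Spinal Cord came next, at 116 ± 43.2 (n = 12), above Somites and Late Anterior PSM. Mature Endoderm there, at 40.6 ± 16.8 (n = 3), was within the spread of Mature Somites at 58.5 ± 30.6 (n = 22).

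Hoxa9 fell away more steeply from neural to somitic types. It averaged 140 ± 16.9 CPM in Early Spinal Cord, 102 ± 25.6 in NMPs, 75.8 ± 30.8 in Late Spinal Cord, 41.4 ± 22.5 in Late Posterior PSM, 11.8 ± 11.8 in Late Anterior PSM, 4.71 ± 4.79 in Somites, 2.79 ± 3.16 in Mature Somites, 1.59 ± 1.92 in Mature Endoderm and 0.27 ± 0.38 in Head Mesoderm. No neighbours in this order lay beyond their spread. In MULTI-seq 1 the first 5 types came in the same order. There Early Spinal Cord at 159 ± 22.8 CPM (n = 20) lay beyond NMPs at 113 ± 22.9 (n = 20). Late Spinal Cord at 98.3 ± 36.9 (n = 12) lay beyond Late Posterior PSM at 39.5 ± 15.2 (n = 20), and that type beyond Late Anterior PSM at 11.9 ± 6.68 (n = 14). Mature Endoderm came next in that experiment, at 8.35 ± 3.10 (n = 3), above Somites at 4.64 ± 3.89 (n = 4) and within their spread. Hoxa10 had the same leading types, with 28.4 ± 13.4 CPM in Early Spinal Cord, 17.3 ± 7.28 in NMPs, 6.59 ± 8.84 in Late Spinal Cord, 4.61 ± 4.97 in Late Posterior PSM and at most 0.65 elsewhere. Hoxa11 was at 1.77 ± 1.98 CPM in NMPs and 0.78 ± 0.93 in Early Spinal Cord, within the spread, and at 0.42 ± 0.96 and 0.46 ± 0.94 in MULTI-seq 1.

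Hoxa2 was highest in Mature Somites in both experiments, and Hoxa5 in MULTI-seq 3 alone, each within the spread of the next type. Hoxa2 was in Mature Somites at 32.7 ± 7.47 CPM, followed by Late Posterior PSM at 24.1 ± 7.33, Late Spinal Cord at 22.7 ± 3.00, Somites at 16.4 ± 6.42, Late Anterior PSM at 16.0 ± 4.43, Early Spinal Cord at 15.1 ± 3.10 and NMPs at 12.96 ± 3.61. Head Mesoderm at 2.62 ± 1.38 and Mature Endoderm at 0.55 ± 0.55 lay beyond the spread of the types above them. At day 4 Hoxa2 had been highest in Early Posterior PSM, at 58.9 ± 10.8 CPM (n = 15). Hoxa5 at day 5 was at 28.7 ± 6.12 CPM in Mature Somites, 22.4 ± 8.55 in Somites, 20.9 ± 5.05 in Late Anterior PSM, 19.0 ± 4.15 in Early Spinal Cord and between 14.2 and 15.2 in Late Posterior PSM, NMPs and Late Spinal Cord. Head Mesoderm and Mature Endoderm held 1.12 ± 1.52 and 1.06 ± 0.45 CPM of Hoxa5. In MULTI-seq 1 Hoxa5 was at 25.5 ± 6.04 CPM in Late Anterior PSM (n = 14), 24.4 ± 5.03 in Somites (n = 4) and 24.0 ± 9.10 in Mature Somites (n = 22), which were within the spread of one another.

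Hoxa3 had its highest means in NMPs and Early Spinal Cord, and Hoxa4 in those types and in Late Posterior PSM. Hoxa3 averaged 57.2 ± 7.52 CPM in NMPs and 54.2 ± 8.76 in Early Spinal Cord, beyond the spread of Late Posterior PSM at 32.8 ± 8.08 and Late Spinal Cord at 31.4 ± 7.63, and these in turn lay beyond Mature Somites at 12.6 ± 2.98. In MULTI-seq 1 NMPs at 73.9 ± 13.8 and Late Spinal Cord at 53.1 ± 20.8 were within their spread. Hoxa4 ranged from 12.6 to 13.7 CPM in NMPs, Late Posterior PSM and Early Spinal Cord, was at 9.09 ± 2.24 in Late Spinal Cord, within the spread of Early Spinal Cord, and ranged from 5.70 to 6.12 in Somites, Mature Somites and Late Anterior PSM. In MULTI-seq 1 it was at 16.9 ± 6.91 CPM in NMPs, 16.3 ± 4.98 in Late Posterior PSM and 15.6 ± 8.19 in Late Spinal Cord. With the cells of each day and type of MULTI-seq 3 summed, Hoxa4 was highest in Late Posterior PSM at day 4, at 16.1 CPM. Hoxa6 was highest in Early Spinal Cord, at 2.66 ± 1.47 CPM, and in Somites, at 2.52 ± 2.85.

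**Figure D2:**
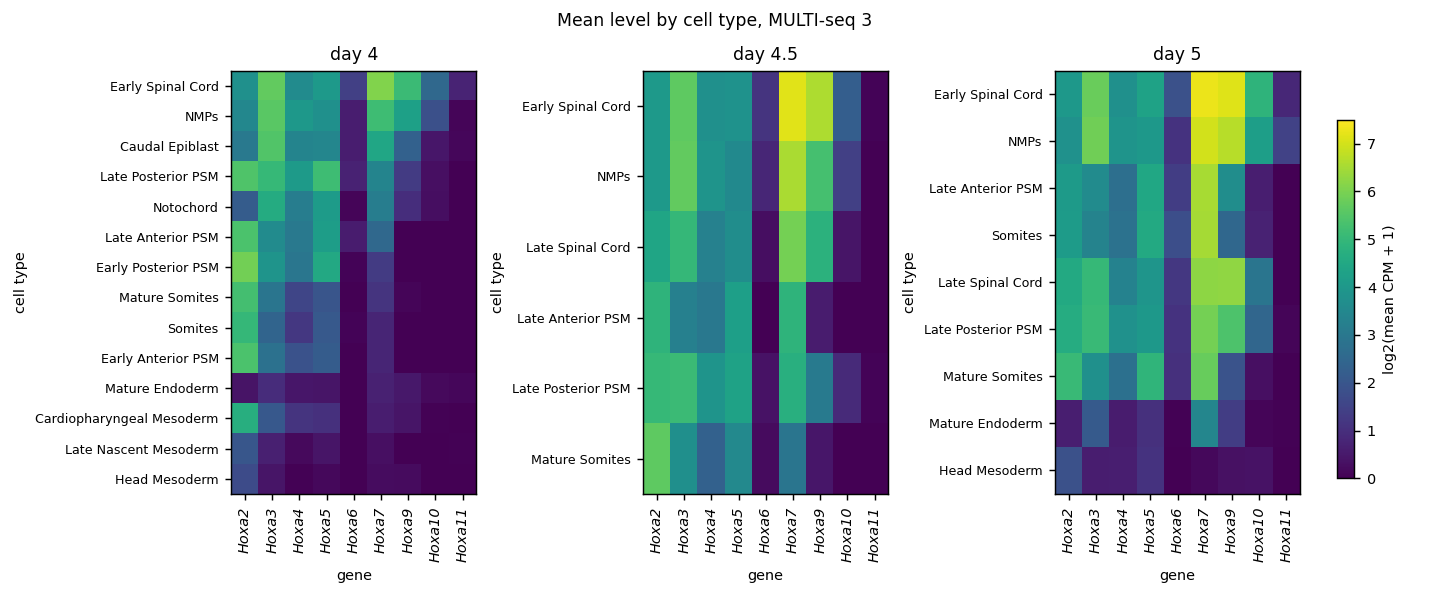
Mean level of each member in each named cell type at days 4, 4.5 and 5 of MULTI-seq 3, as log2(mean CPM + 1) by colour, over gastruloids with at least 20 cells of the type. Types are rows and genes are columns in their order along the cluster. Hoxa7 and Hoxa9 are brightest in Early Spinal Cord and NMPs, and Hoxa2 in Early Posterior PSM at day 4 and Mature Somites at day 5. Head Mesoderm is dark for all 9 genes.

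The order of the levels was also seen in the share of cells with a UMI after each cell was thinned to 5000 UMIs, which left out no cell of the types named here at day 5. Hoxa7 was found in 47.6% of Early Spinal Cord cells (92.4% unthinned), 43.0% of NMPs (88.1%) and 20.8% of Mature Somites cells (44.9%). Hoxa9 was found in 48.5%, 38.2% and 1.17% of the same types (94.0%, 86.0% and 4.26% unthinned). Hoxa10 was found in 12.4%, 8.76% and 0.11% (47.6%, 36.6% and 0.50% unthinned). Head Mesoderm, where the mean levels of Hoxa7 and Hoxa9 were the lowest of the 9 types, was taken as a reference for low shares. Free RNA itself was not measured. There the thinned shares were 0.23%, 0.24% and 0.06% (1.21%, 1.21% and 0.40% unthinned). For Hoxa10 it was not the lowest type, at 0.28 CPM against 0.23 in Mature Somites and 0.08 in Mature Endoderm. Whether the Hoxa10 share in Mature Somites, 0.11% against 0.06% in Head Mesoderm, comes from free RNA was not tested. Median UMIs per cell were 31353 in Early Spinal Cord, 28180.5 in NMPs, 24907.5 in Mature Somites and 26567 in Head Mesoderm.

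Within a type, the day can be compared over gastruloids, given the authors' naming of the cells. From day 4.5 to 5 the 5' genes Hoxa7 and Hoxa9 rose in several types, and Hoxa2 fell in the 3 mesodermal types tested. Hoxa10 rose in NMPs and Early Spinal Cord, the only types in which it passed the filter on low counts. These tests used gastruloids with at least 20 cells of the type on each day.

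In Mature Somites Hoxa7 rose by 3.08 (SE 0.33, adjusted p = 1.85e-08), Hoxa5 by 1.496 (SE 0.14, adjusted p = 2.41e-09), and Hoxa2 fell by 0.56 (SE 0.11, adjusted p = 0.00037). These were 3 of 5 members tested, beside 14.6% of all genes called. Hoxa7 was at 1.06, 7.21 and 10.3 CPM in the lowest, median and highest of 10 gastruloids at day 4.5 and at 9.51, 54.7 and 98.6 in 16 at day 5. The days overlapped only at their edges. Hoxa5 was at 6.32, 10.3 and 16.5 CPM and then at 16.0, 29.0 and 39.3. Hoxa2 was at 37.4, 47.8 and 70.6 CPM and then at 22.7, 31.2 and 52.1, and its days overlapped. In the day 5 gastruloids of MULTI-seq 1, Hoxa7 in Mature Somites ranged from 3.71 to 131 CPM (n = 22).

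In Late Anterior PSM Hoxa7 rose by 1.63 (SE 0.15, adjusted p = 4.25e-09) and Hoxa2 fell by 0.88 (SE 0.19, adjusted p = 0.0079), 2 of 4 members tested beside 1.81% of all genes. Hoxa7 was at 16.9, 27.8 and 43.6 CPM in 5 gastruloids at day 4.5 and at 74.1, 89.5 and 114 in 12 at day 5, without overlap. Hoxa2 was at 21.8, 28.3 and 34.7 CPM and then at 8.42, 15.9 and 22.7. In Late Posterior PSM Hoxa7 rose by 1.21 (SE 0.11, adjusted p = 3.24e-11) and Hoxa9 by 2.33 (SE 0.31, adjusted p = 8.71e-07), and Hoxa2 fell by 0.39 (SE 0.12, adjusted p = 0.036), 3 of 6 members tested beside 6.15% of all genes. Hoxa7 was at 17.7, 24.8 and 39.7 CPM in 9 gastruloids and then at 44.3, 57.0 and 86.6 in 15, again without overlap. Hoxa9 was at 0.65, 5.41 and 14.8 CPM and then at 12.8, 40.8 and 86.5. The Hoxa2 call in Late Posterior PSM was lost when library totals alone were used, with at least 50 cells (4 and 9 gastruloids), and without any 1 of lanes A, B and C.

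In NMPs Hoxa9 rose by 1.28 (SE 0.16, adjusted p = 3.51e-07), Hoxa10 by 2.88 (SE 0.35, adjusted p = 1.27e-07) and Hoxa7 by 0.42 (SE 0.13, adjusted p = 0.039), 3 of 7 members tested beside 6.06% of all genes. Hoxa9 was at 18.1, 37.5 and 65.1 CPM in 8 gastruloids at day 4.5 and at 75.3, 95.3 and 167 in 14 at day 5, without overlap. Hoxa10 was at 0, 1.14 and 5.31 CPM and then at 4.86, 17.6 and 30.9. The Hoxa7 call was lost without lane B (adjusted p = 0.057) or lane C (adjusted p = 0.43).

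In Early Spinal Cord Hoxa5 rose by 0.59 (SE 0.12, adjusted p = 0.00080), Hoxa9 by 0.57 (SE 0.11, adjusted p = 0.00042) and Hoxa10 by 2.76 (SE 0.30, adjusted p = 1.23e-08), 3 of 7 members tested beside 12.3% of all genes. Hoxa9 was at 46.5, 90.7 and 140 CPM in 14 gastruloids and then at 114, 141 and 177 in 15. Hoxa10 was at 0, 3.71 and 9.46 CPM and then at 5.48, 24.6 and 53.6. Hoxa7, which had the highest level here of all types, differed by 0.10 (95% interval -0.06 to 0.26, adjusted p = 0.50). In Late Spinal Cord Hoxa9 rose by 1.37 (SE 0.30, adjusted p = 0.0058), from 13.96, 21.4 and 60.2 CPM in 7 gastruloids to 32.9, 76.8 and 131 in 8. It was 1 of 6 members tested, beside 7.79% of all genes, and Hoxa7 differed there by 0.25 (95% interval -0.04 to 0.53, adjusted p = 0.33).

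**Figure D3:**
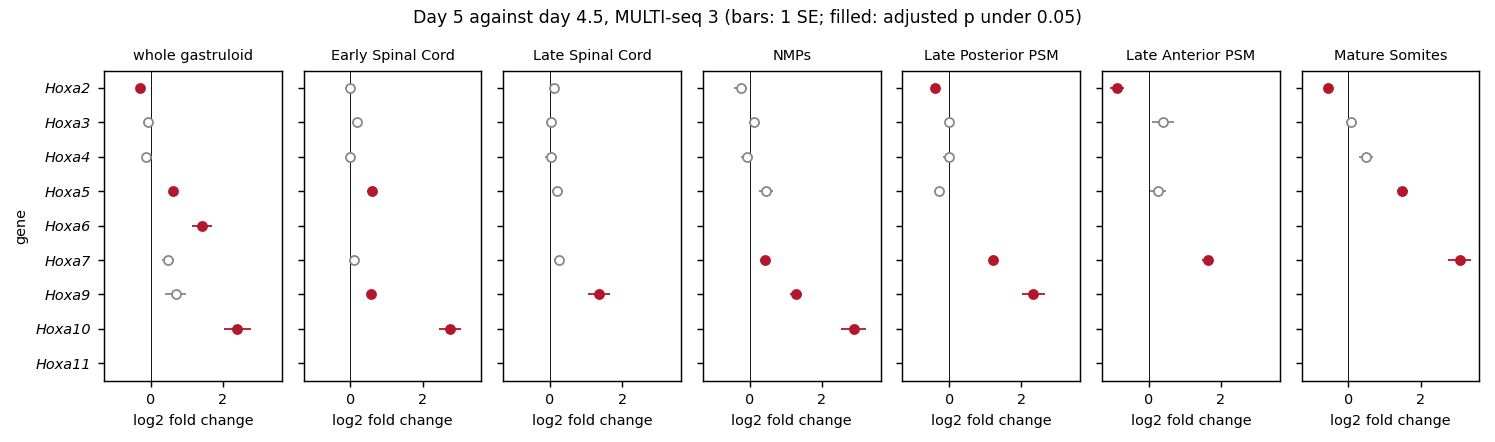
Log2 fold change of each member at day 5 against day 4.5 in MULTI-seq 3, in whole gastruloids and in 6 cell types. Points are estimates, bars are 1 SE, and filled points have an adjusted p under 0.05. Hoxa7 lies at 0.10 in Early Spinal Cord and at 3.08 in Mature Somites, and Hoxa2 is at or below 0 in the mesodermal types.

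**Figure D4:**
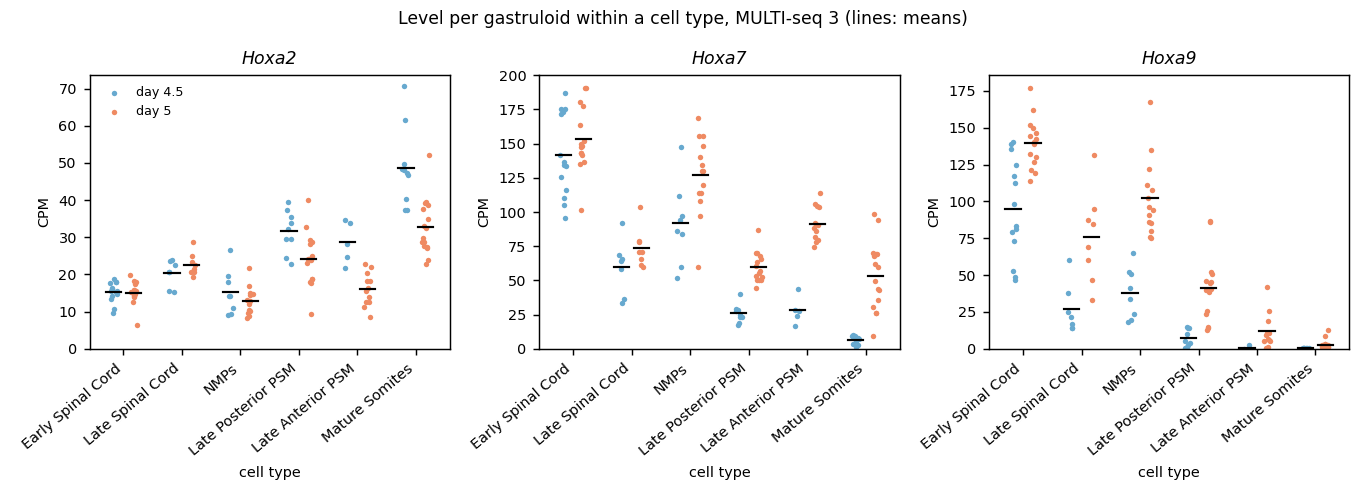
Level of Hoxa2, Hoxa7 and Hoxa9 in CPM within 6 cell types of MULTI-seq 3 at day 4.5 and day 5. Each point is 1 gastruloid with at least 20 cells of the type and lines are means. Hoxa7 does not overlap between the days in Late Posterior PSM and Late Anterior PSM, and Hoxa9 does not in NMPs.

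Whether the day acted differently in a neural and a mesodermal type was tested directly for Mature Somites and Early Spinal Cord, in gastruloids that held both (8 at day 4.5 and 15 at day 5), with the gastruloid as a block. The Hoxa7 change was larger in Mature Somites by 2.78 (SE 0.31, adjusted p = 8.70e-08), and so was the Hoxa5 change, by 0.82 (SE 0.19, adjusted p = 0.0090). Of all genes, 4.03% were called in this test. These were 2 of 7 members in the test. The differences of Hoxa2 at -0.63 (adjusted p = 0.055), Hoxa3 at -0.01 (adjusted p = 1.00) and Hoxa4 at 0.41 (adjusted p = 0.41) did not pass. The remaining 2, Hoxa9 and Hoxa10, did not pass either, but stood at 0.38 and 0 CPM in Mature Somites at day 4.5 and failed the filter on low counts in that type, so nothing is read from their test.

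The earlier step, day 4 against day 3.5, could be tested in 2 types of MULTI-seq 3. In Caudal Epiblast Hoxa7 rose by 1.04 (SE 0.20, adjusted p = 0.00028), from 2.92, 9.40 and 16.8 CPM in 13 gastruloids to 6.83, 18.4 and 41.5 in 13. Hoxa3 rose by 0.45 (SE 0.10, adjusted p = 0.0019), from 20.1, 33.1 and 42.9 CPM to 31.7, 42.8 and 58.4. These were 2 of 5 members tested beside 18.8% of all genes, and with at least 50 cells, which left 7 and 3 gastruloids, both calls were lost (Hoxa7 0.91, adjusted p = 0.078, and Hoxa3 0.21, adjusted p = 0.61). In Early Posterior PSM Hoxa2 rose by 0.66 (SE 0.13, adjusted p = 0.00022), from 10.8, 35.4 and 54.7 CPM in 10 gastruloids to 36.3, 56.0 and 78.0 in 15. Hoxa4 rose by 0.43 (SE 0.17, adjusted p = 0.045), and these were 2 of 4 members tested beside 36.9% of all genes. The Hoxa4 call was lost with at least 50 cells (7 and 11 gastruloids) and without lane A, B or D. In MULTI-seq 2 no type had enough gastruloids on both days.

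Experiments differ in culture, pool and lanes at once, which cannot be told apart. Cell quality moved with them, and depth did in the comparisons of days 4 and 5. The median mitochondrial share of a cell's UMIs was 5.20% to 5.48% over the lanes of MULTI-seq 1 and 2. It was 1.94% to 2.26% over those of MULTI-seq 3. Median UMIs per cell were 8287 to 15709 in the lanes of MULTI-seq 1 and 26466 to 30826 in the MULTI-seq 3 lanes of days 4.5 and 5. In the MULTI-seq 2 lanes with assigned gastruloids they were 25275 and 27116, close to those MULTI-seq 3 lanes. In the MULTI-seq 3 lanes of days 3.5 and 4 they were 26900 to 38443. Totals of day 4 gastruloids were 1766803 to 7774717 UMIs in MULTI-seq 2 and 14647539 to 57333371 in MULTI-seq 3, without overlap. The part of these measures in the differences was not tested. At day 4 none of 6 members tested differed between MULTI-seq 3 and MULTI-seq 2 by edgeR, and none had an unadjusted p under 0.05, beside 46.1% of all genes called. With library totals alone Hoxa5 was higher in MULTI-seq 3 by 0.64 (adjusted p = 0.025). At day 4.5, 5 of 6 were higher in MULTI-seq 3, beside 42.5% of all genes called, of which 2468 were higher and 2498 lower. Hoxa2 was higher by 0.39, Hoxa4 by 0.49, Hoxa5 by 0.91, Hoxa7 by 0.82 and Hoxa9 by 1.51 (highest adjusted p = 0.021, Hoxa7). At day 5, 4 of 8 differed from MULTI-seq 1, beside 63.7% of all genes: Hoxa3 by -0.52, Hoxa4 by -0.41, Hoxa7 by -0.39 and Hoxa5 by 0.24 (highest adjusted p = 0.0037, Hoxa5). With library totals alone the median of all genes was -0.25 in that comparison, against -0.02 with TMM scaling. By library totals Hoxa5 was at 0.02 (adjusted p = 0.81), while Hoxa2 at -0.28 (adjusted p = 0.00035) and Hoxa9 at -0.56 (adjusted p = 0.013) passed. In MULTI-seq 1 Hoxa7 averaged 118 ± 29.0 CPM, Hoxa9 71.9 ± 27.1 and Hoxa10 10.9 ± 7.11 (n = 24).

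The libraries without gastruloid assignment gave single values with exact 95% Poisson intervals, which cover counting error only. At day 3 Hoxa2 was at 4.44 CPM (3.90 to 5.04), Hoxa7 at 3.05 (2.60 to 3.55) and Hoxa9 at 0.83 (0.60 to 1.10). At day 4 Hoxa2 was at 25.0 CPM (23.4 to 26.6), Hoxa7 at 18.3 (16.9 to 19.7) and Hoxa9 at 5.75 (5.01 to 6.57), and Hoxa11 had no UMI, for which the interval reaches 0.098 CPM. In both lanes of the mixed pool of days 4 and 4.5, Hoxa7 was at 23.8 and 26.2 CPM and Hoxa9 at 7.75 and 8.16.

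The members' levels were correlated with one another over 54 groups of day and type in MULTI-seq 3, which share libraries and gastruloids, so this is a description. On the log2(CPM + 1) scale Pearson's r was 0.94 for Hoxa3 and Hoxa4, 0.91 for Hoxa4 and Hoxa5, 0.89 for Hoxa9 and Hoxa10, 0.88 for Hoxa7 and Hoxa9, 0.86 for Hoxa6 and Hoxa7, 0.76 for Hoxa10 and Hoxa11, 0.61 for Hoxa5 and Hoxa6 and 0.57 for Hoxa2 and Hoxa3, which are the neighbouring pairs. Among pairs further apart it was 0.84 for Hoxa3 and Hoxa5, 0.78 for Hoxa3 and Hoxa7 and 0.76 for Hoxa6 and Hoxa9. It was lower, at 0.24 for Hoxa2 and Hoxa9 and 0.16 for Hoxa2 and Hoxa10. Among 10225 genes, the gene most like Hoxa2 was Hoxaas2 (r = 0.91), followed by Tshz3 (0.86) and Hotairm1 (0.84). Hoxa3 was most like Hoxaas3 (0.92), Hoxb4 (0.90) and Hoxc4 (0.89), Hoxa4 most like Hoxb4 (0.96), Hoxb6 (0.92) and Hoxd4 (0.92), and Hoxa5 most like Hoxb4 (0.92), Hotairm1 (0.90) and Hoxb5 (0.87). Hoxaas3 shares exonic bases with Hoxa3 on the other strand. It averaged 341 CPM in the day 5 gastruloids of MULTI-seq 3, against 26.9 for Hoxa3. The part of shared reads in their likeness was not tested. Hoxa7 was most like Hoxb5os (0.93), Hoxc6 (0.90) and Hoxc9 (0.89), Hoxa9 most like Hoxc9 (0.95), Hoxc10 (0.89) and Hoxc6 (0.89), and Hoxa10 most like Hoxc10 (0.97), Gm53 (0.85) and Hoxc9 (0.83). Hoxa6, with few UMIs, was most like Hoxb5os (0.82), Ube2b (0.77) and Hoxc9 (0.74), and Hoxa11 most like Hoxc10 (0.76), Ccnjl (0.58) and Gm53 (0.57).

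A list of 64 genes held the other HoxA locus genes, the other Hox clusters, the Cdx, retinoic acid, Polycomb and timing genes, and the PBX and MEIS cofactors. At day 5 against day 4.5, 3 of the 54 tested rose and 7 fell, beside 13.5% of all genes called. Hoxc10, the counterpart of Hoxa10 in the HoxC cluster, rose by 2.75 (adjusted p = 9.50e-07), while Cdx1, a homeodomain activator of Hox genes, fell by 1.46 (adjusted p = 0.023) and Aldh1a2, which makes retinoic acid, fell by 1.14 (adjusted p = 0.012). Of the 20 genes tested in the other clusters 2 rose, and of 4 timing genes 3 fell, which were Nr6a1, Lin28a and Lin28b. At day 4 against day 3.5, 18 of 52 rose and 15 fell, beside 60.4% of all genes called. Meis1, a Hox cofactor, rose by 2.75, Crabp1, a retinoic acid binding protein, rose by 2.20, and all 3 Cdx genes fell, Cdx1 by 2.44. At day 4.5 against day 4 in MULTI-seq 2, 4 of 52 rose and 1 fell, beside 7.36% of all genes called. Nothing particular to the list is read from these counts. Hoxc9 was up by 1.93 (adjusted p = 0.019), Crabp2 up by 1.02 (adjusted p = 0.026) and Cdx1 down, at -1.93 (adjusted p = 0.0019). The list's median change in these comparisons was -0.03, -0.04 and 0.19, against 0.00, 0.01 and 0.00 over all genes tested.

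Last, the level of a member in 1 tissue of a gastruloid was set against its level in another tissue of the same gastruloid, over 3 pairs of types (Late Spinal Cord and Mature Somites, NMPs and Late Posterior PSM, and Early Spinal Cord and Mature Somites at day 4.5 or 5). Of 27 such relations tested by permutation, 20 had a positive r and none had an adjusted p under 0.05, while 2 had an unadjusted p under 0.05. The largest r with at least 20 cells of each type was for Hoxa9 in NMPs and Late Posterior PSM of MULTI-seq 3: r was 0.62 (permutation p = 0.023, adjusted p = 0.31) and Spearman's rho 0.59 (permutation p = 0.038, adjusted p = 0.36) over 13 gastruloids. Leaving out the 2 gastruloids with the most extreme NMP levels gave an r of 0.24, so the relation in that experiment rests on them. In MULTI-seq 1 the same r was 0.46 (permutation p = 0.051, adjusted p = 0.45) over 19 gastruloids, and 0.51 without the 2 most extreme. The other relation with an unadjusted p under 0.05 was that of Hoxa4 in the same types of MULTI-seq 1, with an r of 0.52 (permutation p = 0.022, adjusted p = 0.31), a rho of 0.46 (permutation p = 0.046, adjusted p = 0.36) and an r of 0.36 without the 2 most extreme. With at least 50 cells the MULTI-seq 3 values of Hoxa9 fell into separate clusters and gave no r. The largest r was then that of Hoxa10 in the same types, 0.77 over 7 gastruloids (exact permutation p = 0.044, adjusted p = 0.40). Its rho was 0.68 (exact permutation p = 0.11), and its r was 0.20 without the 2 most extreme gastruloids. Hoxa5 in the same types and gastruloids had an r of 0.76 (exact permutation p = 0.072, adjusted p = 0.40), and 0.79 without the 2 most extreme. The rho of Hoxa5 was 0.82 (exact permutation p = 0.034, adjusted p = 0.48). In MULTI-seq 1 the Hoxa5 r was -0.26 over 9 gastruloids. A further 10 relations were not tested because their values fell into separate clusters.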

How the data were processed

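The files hold UMI counts per gene and cell, deposited by the authors as raw counts with a table of cell types, days and gastruloids. Reads were processed with Cell Ranger 6.0.0 and Seurat on mm10, per the submitters' processing notes. No source used here gives the annotation or the strand setting of the counting. No doublet caller was run: the cells are those of the authors' deposited final cell table, and their names are the authors'.

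The counts of each gastruloid, or of each type in it, were summed over lanes. Sums with at least 30 cells (20 for a type, with at least 5 gastruloids a day) were tested with edgeR 4.0.16 in R 4.3.3 (quasi-likelihood, TMM scaling, filterByExpr), with Benjamini-Hochberg adjustment over all genes and a threshold of 0.05. SE is the absolute log2 fold change divided by the square root of F. Relations between tissues used 100000 permutations (exact under 10 gastruloids) and members with a UMI in at least 50% of gastruloids in both types. DESeq2 1.42.0, other scalings, filters, cell minimums, the neural share as a covariate and each lane left out were alternatives. The tests were tested on simulated data. UMIs come from 3' ends, so a level was set against other levels of the same gene.

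All members were described. Of the pathway list the 3 called genes with the largest change per comparison within a pool were named, and for each member the 3 genes most like it, among those at 10 CPM or more in a group of at least 100 cells. Nr6a1, Lin28a and Lin28b were named after their values were seen. The members and lists were chosen with earlier results of these data known.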

Additional observations from a re-analysis of the deposited data

Results flagged for a closer look

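Of 38 combinations of a member, a type and a day that were looked at, 2 had 1 gastruloid apart from the others. Chance gives about 1 in 20, which is close to that count. The members of a type and day share the same gastruloids, so the combinations are not independent. Hoxa3 in Early Posterior PSM at day 3.5 was at 30.03 CPM in 1 of 10 gastruloids, while the next was at 19.8 and the lowest at 12.8. Hoxa7 in Late Spinal Cord at day 5 was at 104 CPM in 1 of 8 gastruloids, while the next was at 78.7 and the lowest at 59.9.

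For 2 members the change from day 4.5 to 5 differed between Mature Somites and Early Spinal Cord by edgeR's test of the difference itself. In that test 4.03% of all genes were called. Hoxa2, Hoxa3 and Hoxa4 did not pass, and nothing is read from the test for Hoxa9 and Hoxa10. The log2 change in Mature Somites exceeded that in Early Spinal Cord by 2.78 for Hoxa7 and by 0.82 for Hoxa5.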

How the results depend on the processing

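The 95 tested results for members, 45 of them called, were recomputed under the alternative settings, which gave 740 values in all. The settings share most of their cells, so these values are not independent of one another. Of those on called results 355 kept direction and call, 16 lost the call and none reversed, and of those on results not called 330 stayed so, 12 gained a call and 27 turned sign. The count of all genes called moved by over 1.5 times in these cases. With the neural share as a covariate it went from 1655 to 2972 at day 5 against day 4.5 and from 814 to 1597 in MULTI-seq 2. With at least 50 cells it went from 1661 to 34 in Caudal Epiblast (7 and 3 gastruloids left) and from 518 to 236 in Late Posterior PSM (4 and 9). With 1 lane left out it ran from 340 to 535 in MULTI-seq 2, from 1001 to 1163 in Caudal Epiblast, from 687 to 859 in Early Spinal Cord (1127 with all lanes), from 266 to 309 in Late Posterior PSM, from 414 to 621 in Late Spinal Cord (773 with all lanes) and from 178 to 217 in NMPs (513 with all lanes). Leaving out a lane removes cells, and gastruloids that then have too few.

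The reversed values, all of results not called, were these, with a range where 1 lane each was left out. At day 4 against day 3.5 Hoxa9 was at -0.035 with at least 100 cells and from -0.094 to 0.22 over lanes. In MULTI-seq 2 Hoxa2 was at -0.18 with at least 100 cells and from -0.26 to 0.25 over lanes. Between MULTI-seq 3 and 2 at day 4, Hoxa4 was at 0.11 with at least 100 cells and Hoxa7 ran from -0.52 to 0.25. Between MULTI-seq 3 and 1, Hoxa6 was at 0.0034 with RLE scaling, 0.0196 with no filter, 0.0013 with DESeq2 and 0.0040 with the neural share. Over lanes in Early Spinal Cord, Hoxa2 ran from -0.057 to 0.082 and Hoxa4 from -0.080 to 0.027. In Late Posterior PSM, Hoxa3 was at 0.024 with library totals, 0.027 with at least 50 cells and from -0.018 to 0.082 over lanes, and Hoxa4 at 0.016, 0.052 and from -0.092 to 0.22. In Late Spinal Cord, Hoxa2 ran from -0.022 to 0.23, Hoxa3 from -0.013 to 0.043 (-0.0058 with library totals) and Hoxa4 from -0.086 to 0.12. In NMPs, Hoxa2 ran from -0.12 to 0.23 and Hoxa4 from -0.12 to 0.14. With at least 50 cells, r between NMPs and Late Posterior PSM was 0.33 for Hoxa2 in MULTI-seq 1 and -0.36 for Hoxa3 in MULTI-seq 3. The cause was not tested.

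Library totals alone moved the median of all genes by more than 0.1 in 4 comparisons, all between pools. The test of the difference between types could not be fitted with at least 50 cells, nor Late Anterior PSM with at least 50 cells or 1 lane left out, nor NMPs with at least 50 cells or without lane A. Hoxa6, Hoxa10 and Hoxa11 were too scarce before day 4.5 for any test in these sums. No paired analysis was possible because the labels' numbers and letters mark lanes that split 1 pool and were summed per gastruloid. The gastruloid was a block only in the test between types.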
